A study of Onthophagus taurus with 96 samples.

Results

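The genes examined here encode the enzymes and Yellow proteins of cuticle tanning and pigmentation in the horned beetle Onthophagus taurus. They are the 9 gene models, of 17483 in the deposited table, that carry the name of 1 of 9 Drosophila melanogaster genes: pale (ple), dopa decarboxylase (ddc), black (b), ebony (e), tan (t), yellow (y), yellow-e, yellow-f and yellow-h. They were taken by name, with earlier results of these data known, and all 9 names were found, each once. RNA was sequenced from dsxRNAi females, dsxRNAi males, control females and control males, each in 4 tissues with 6 libraries, giving 16 groups and 96 libraries. The dsxRNAi animals had received 0.5 μg of double-stranded RNA against doublesex (dsx), the transcription factor gene that directs sexual differentiation in insects, by injection as final-instar larvae. Control animals had received 1 μg of double-stranded RNA made from a cloning vector, at the same stage and in the same 3 μl volume. Tissues were dissected within the first day after pupation from laboratory-bred offspring of field-collected beetles, and comprised the brain (supraesophageal ganglion), the genitalia with the posterior abdominal epidermis, the thoracic horn epithelium and the head horn epithelium. The knockdown was systemic, and each tissue piece holds more than 1 cell type.

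After each moult, insect cuticle is hardened and coloured by catecholamines made from tyrosine. Tyrosine hydroxylase (ple) makes DOPA, and DOPA decarboxylase (ddc) turns DOPA into dopamine. Dopamine can be oxidized to black melanin, or joined to beta-alanine, which the aspartate decarboxylase b supplies, by the synthetase e to form N-beta-alanyldopamine, a precursor of pale and yellow-brown cuticle that the hydrolase t splits again. Yellow proteins act further along the melanin branch: in Drosophila, y is needed for black pigment and yellow-f speeds the conversion of dopachrome, whereas in the silkworm the loss of yellow-e changes larval head and tail colour. In the brain, ple and ddc make dopamine as a transmitter.

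Levels are given as CPM, read counts scaled to the size of a library with trimmed mean of M-values (TMM) factors over all 96 libraries, and levels of different genes are set side by side only as FPKM, the authors' counts scaled for gene length and library size. A difference was called where the adjusted p of the quasi-likelihood test of edgeR was under 0.05, after Benjamini-Hochberg adjustment over all genes tested in that comparison. Libraries are named by the number in their label (S1 to S96).

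Between 3615803 and 19008005 reads per library were assigned to genes (median 8518004). The labels describe the 6 libraries of a group as biological replicates from 6 pupae. The dsx transcript itself was at 9.67 to 12.6 CPM (median 11.5) in head horns of dsxRNAi males and at 31.3 to 81.8 CPM (median 39.9) in those of control males (log2 fold change -2.14, SE 0.23, adjusted p = 0.00826 with edgeR), the only one of the 6 knockdown comparisons with a dsx test in which it was called. In brains dsx did not pass the filter on low counts. The 13 epidermal marker genes summed to 5464 to 56362 CPM in the 72 epithelial libraries and 92.4 to 419 CPM in the 24 brain libraries, the 8 neuronal markers to 123 to 485 CPM in epithelia and 1913 to 2695 CPM in brains, and no marker of either list was at 0 throughout a tissue. The 20 most abundant genes took 23.4 to 52.7% of the reads of head horn, 24.9 to 50.4% of thoracic horn, 11.9 to 21.6% of genitalia and 8.15 to 8.95% of brain libraries. TMM factors ran from 0.37 to 1.11 in head horns and from 1.53 to 1.58 in brains, so that scaling by library totals alone moved the median log2 fold change of all genes by -1.12 to -0.17 in the comparisons of an epithelium with brain.

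The 9 genes lie on 9 different scaffolds of the draft assembly to which the authors mapped the reads. Named and identified as in the deposited table, ple (Dmel-Tmp-ple, OTAU012994) occupies positions 17055 to 23369 of scaffold 229 on the minus strand, ddc (Dmel-Tmp-ddc, OTAU003173) positions 524280 to 526045 of scaffold 22 on the minus strand, b (Dmel-Tmp-b, OTAU012258) positions 28256 to 32663 of scaffold 607 on the minus strand, e (Dmel-Tmp-e, OTAU016594) positions 3318 to 25970 of scaffold 1666 on the plus strand, and t (Dmel-Tmp-t, OTAU006686) positions 191571 to 194079 of scaffold 34 on the plus strand. Among the Yellow genes, y (Dmel-Tmp-y, OTAU007342) spans 100199 to 102040 of scaffold 52 on the minus strand, yellow-e (Dmel-Tmp-yellow-e, OTAU001924) 2485341 to 2491401 of scaffold 2 on the plus strand, yellow-f (Dmel-Tmp-yellow-f, OTAU014337) 75290 to 77088 of scaffold 609 on the minus strand, and yellow-h (Dmel-Tmp-yellow-h, OTAU015481) 4789 to 7512 of scaffold 979 on the minus strand. yellow-e stands in a run of Yellow genes, with yellow-k, yellow-g2 and yellow-g before it and yellow-e2 2238 bases after it, and yellow-f2 lies 6468 bases from yellow-f. The b gene overlaps the gene named enox1 on the opposite strand, and the strand setting of the counting is not given in the sources used here. enox1 stayed between 17.4 and 35.3 CPM in the 72 epithelial libraries, over which b ran from 3.55 to 10981 CPM. A second gene named for ddc, from human, had at most 12 reads in any library and passed the filter in no comparison.

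In tissue medians of FPKM, brains were led by e (46.1), ple (38.4) and ddc (32.3), with the other 6 genes between 0.222 and 4.11 FPKM. Thoracic horns were led by ple (161 FPKM), yellow-f (146) and e (42). In head horns yellow-f stood first (284 FPKM), ahead of ple (46.5) and e (4.89). Genitalia were led by ple (253 FPKM), yellow-f (135) and b (15.4). These medians rest on 24 libraries per tissue and hide wide ranges for 5 of the genes, described next.

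**Figure D1:**
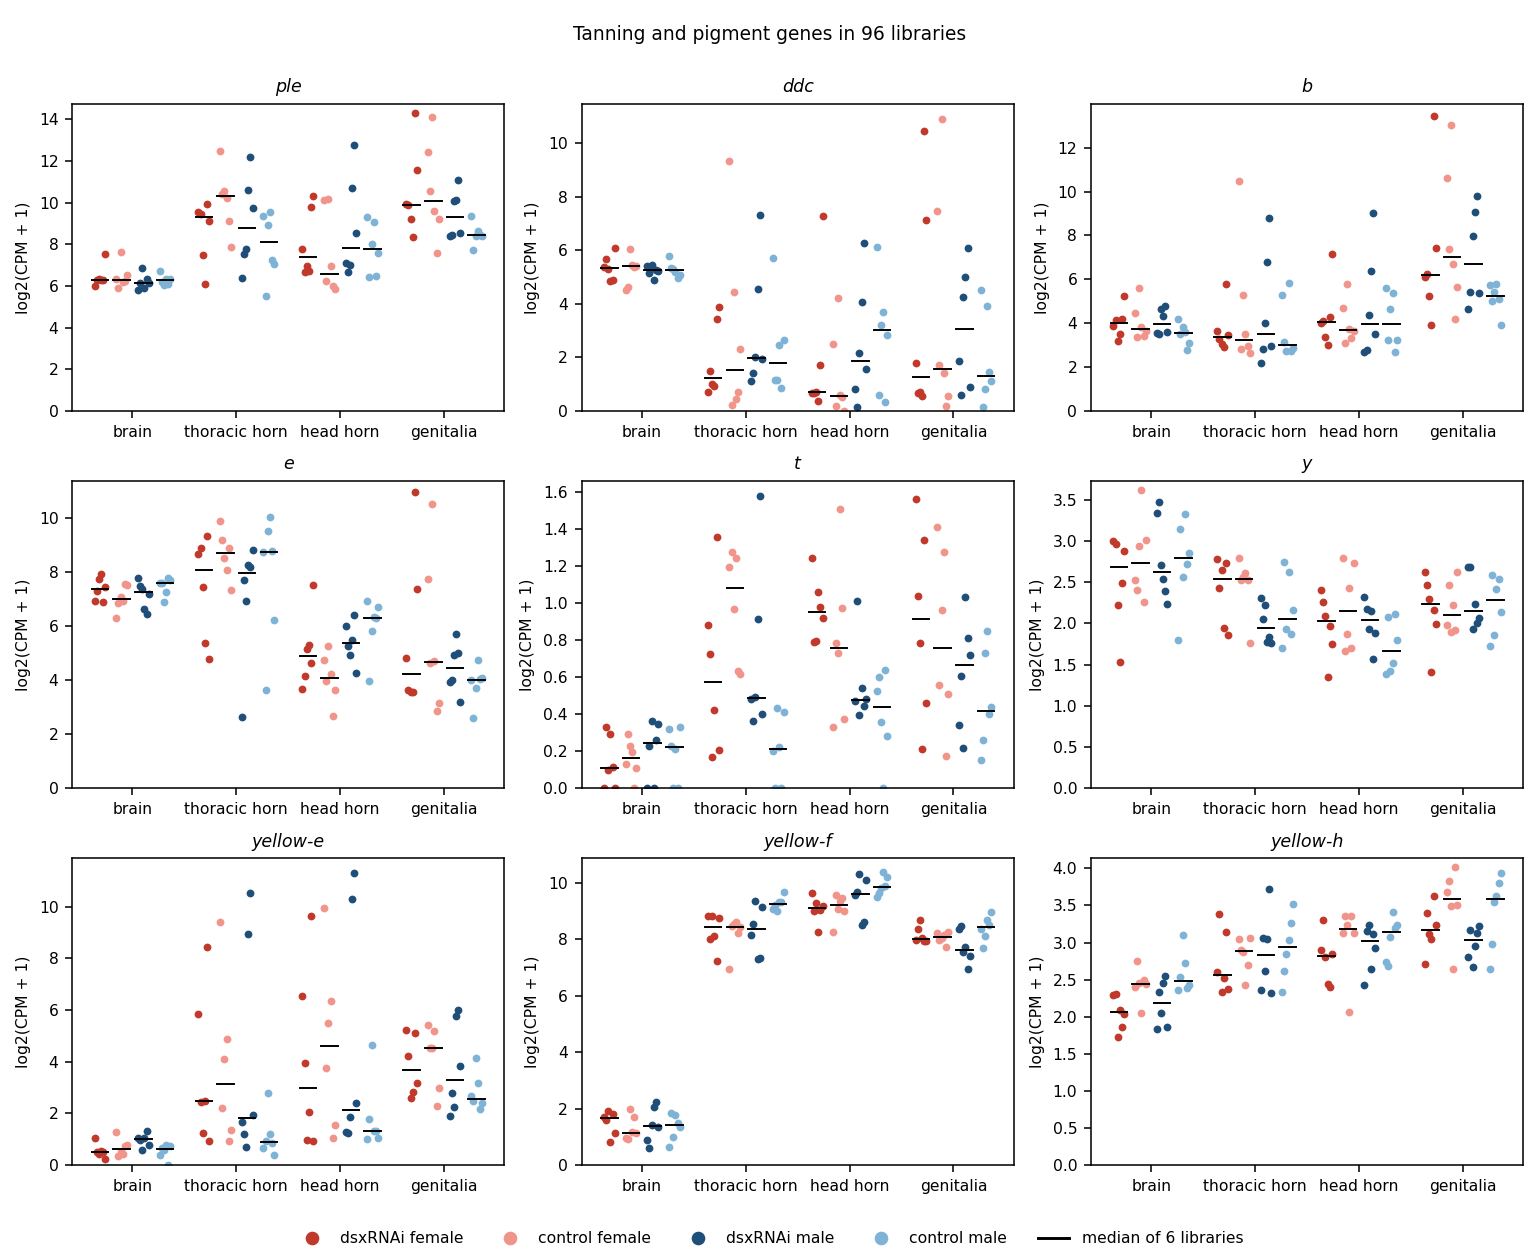
Level of each of the 9 genes, as log2(CPM + 1), in each of the 96 libraries, by tissue, with dsxRNAi females, dsxRNAi males, control females and control males side by side within a tissue; each point is 1 library and each short line a group median. yellow-f stands far above brain in every epithelial library, y and yellow-h form narrow bands, t lies near 0, and ple, ddc, b, e and yellow-e scatter over several log2 units within groups of 6.

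Tyrosine hydroxylase (ple), the rate-limiting step of catecholamine synthesis, was at 193 to 20175 CPM (median 628) in genitalia, 44.6 to 5746 CPM (median 616) in thoracic horns, 56.8 to 6960.1 CPM (median 163) in head horns and 55.4 to 201 CPM (median 77) in brains. In genitalia its 6 values were 982, 936, 599, 325, 20175 and 3070.2 CPM in dsxRNAi females, 333, 353, 1077, 1104, 2213 and 379.8 CPM in dsxRNAi males, 5492, 1514, 17902, 781, 193 and 593 CPM in control females and 657, 211, 336, 395, 355 and 340.2 CPM in control males. A single library in each female group (S77 of dsxRNAi and S87 of controls) lay far above the other 5, and the male groups had no such library. In thoracic horns the ranges were 67.2 to 984 CPM (median 634) in dsxRNAi females, 83.5 to 4768 CPM (median 543) in dsxRNAi males, 236 to 5746 CPM (median 1282) in control females and 44.6 to 759 CPM (median 323) in control males, and all 4 overlapped. In head horns they were 99.9 to 1292 CPM (median 174), 102 to 6960.1 CPM (median 254), 56.8 to 1177 CPM (median 98.4) and 87 to 646 CPM (median 225) in the same order of groups, with the highest value in dsxRNAi male S59.

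DOPA decarboxylase (ddc), the next step, was at 22.2 to 66.5 CPM (median 38.6) in brains and ranged more widely in epithelia. Its 24 thoracic horn libraries ran from 0.158 to 649 CPM (median 2.34), the 24 head horn libraries from 0 to 156 CPM (median 1.38), and the 24 genitalia libraries from 0.0982 to 1928 CPM (median 2.01). The median of each epithelium therefore lay below that of the brain while its highest libraries lay above every brain. In genitalia, ddc had 2.51, 0.603, 0.62, 0.476, 1398 and 140.2 CPM in dsxRNAi females, 2.68, 0.521, 18.1, 31.5, 66.8 and 0.843 CPM in dsxRNAi males, 177, 2.26, 1928, 1.67, 0.126 and 0.494 CPM in control females and 21.7, 0.0982, 0.788, 14.1, 1.77 and 1.18 CPM in control males. The libraries with the most ddc in both female groups were again S77 and S87, which also held the most ple, b and e of their groups.

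The aspartate decarboxylase b was highest in genitalia, at 14 to 10981 CPM (median 53.8), against 3.55 to 1419 CPM (median 8.31) in thoracic horns, 5.36 to 517 CPM (median 13.6) in head horns and 5.95 to 47.4 CPM (median 12.3) in brains. By group, genitalia had 14 to 10981 CPM (median 71.4) in dsxRNAi females, 23.8 to 898 CPM (median 145) in dsxRNAi males, 17.3 to 8299 CPM (median 134) in control females and 14 to 54.8 CPM (median 37.3) in control males. All 4 groups started between 14 and 23.8 CPM and differed in how far their highest libraries reached. The N-beta-alanyldopamine synthetase e had another order of tissues, with 5.13 to 1037 CPM (median 334) in thoracic horns, 78.2 to 238 CPM (median 158) in brains, 5.37 to 182 CPM (median 36.2) in head horns and 5.11 to 1962 CPM (median 15.5) in genitalia. Its 2 highest genitalia libraries were S77 (1962 CPM) and S87 (1467 CPM), and the next highest of all 24 was 212 CPM. The hydrolase t, which reverses the step of e, had at most 18 reads in any library and none in 10 libraries, with group medians from 0.0775 CPM in brains of dsxRNAi females to 1.12 CPM in thoracic horns of control females. It passed the filter on low counts in 1 of the 44 comparisons, so its levels are a description only.

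Of the Yellow genes, yellow-e had the widest range in both horns. It was at 0.331 to 1488 CPM (median 2.53) in thoracic horns, 0.895 to 2527 CPM (median 2.89) in head horns, 2.77 to 62.7 CPM (median 8.12) in genitalia and 0 to 1.52 CPM (median 0.556) in brains. In head horns its 6 values were 92, 14.3, 0.981, 3.11, 798 and 0.895 CPM in dsxRNAi females, 1.41, 1.35, 2.66, 1243, 2527 and 4.28 CPM in dsxRNAi males, 972, 12.5, 43.7, 81.4, 1.07 and 1.93 CPM in control females and 1.02, 2.44, 23.8, 1.53, 1.48 and 1.08 CPM in control males. Values of 798 CPM or more stood beside values near 1 CPM in the first 3 groups and were absent from control males, whose ranges nonetheless overlapped all the others. Thoracic horns had the same layout, with 55.8, 4.39, 1.38, 4.65, 344 and 0.927 CPM in dsxRNAi females, 2.17, 1.3, 0.614, 495, 1488 and 2.89 CPM in dsxRNAi males, 667, 3.64, 16, 28.5, 0.916 and 1.6 CPM in control females and 0.599, 0.904, 5.99, 1.34, 0.794 and 0.331 CPM in control males. The genitalia of no group exceeded 62.7 CPM.

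yellow-f ranged less widely in epithelia. It was at 301 to 1328 CPM (median 708) in head horns, 123 to 817 CPM (median 378) in thoracic horns, 123 to 501 CPM (median 270.5) in genitalia and 0.517 to 3.72 CPM (median 1.6) in brains, so that the lowest epithelial library exceeded the highest brain. The canonical y gene stayed between 1.55 and 11.3 CPM in all 96 libraries and had its highest tissue median in brains (5.56 CPM), followed by thoracic horns (3.82 CPM), genitalia (3.57 CPM) and head horns (2.87 CPM). yellow-h, whose role in cuticle is not given here, had 5.26 to 15.2 CPM (median 8.39) in genitalia, 3.18 to 9.66 CPM (median 7.58) in head horns, 4.01 to 12.2 CPM (median 6.25) in thoracic horns and 2.31 to 7.54 CPM (median 4.19) in brains.

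The spread between libraries of a group separated the 9 genes. The within-group standard deviation (SD) of log2(CPM + 1), pooled over the 4 groups of a tissue, was 3.10 for yellow-e in thoracic horns and 3.44 in head horns, and 3.38 for ddc in genitalia, against medians over 10532 expressed genes of 0.34, 0.29 and 0.33. In genitalia 4 genes had a larger SD than ddc, and in head horns 11 had a larger SD than yellow-e. The SD of ple was 1.73, 1.90 and 1.70 in thoracic horns, head horns and genitalia, that of b 2.19, 1.65 and 2.61, and that of e 1.97, 1.04 and 2.18. In contrast y, yellow-f and yellow-h had SDs from 0.362 to 0.632 in the 3 epithelia, between the 53.1 and 78.1 percentiles of all genes. In brains all members but t had SDs from 0.26 to 0.67, against a median of 0.149 over all genes there, and lay between the 78.7 and 95.2 percentiles.

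Most pairs of the variable genes had positive correlations from library to library, with e and yellow-e the weakest of them. After the mean of each group was removed, Pearson's r over the 72 epithelial libraries was 0.91 for ddc and b, 0.85 for b and ple, 0.81 for ddc and ple, and 0.74 for ple and e. For yellow-e it was 0.65 with ple, 0.58 with b and -0.61 with yellow-f. Over all 36 pairs of members the median r was 0.15 in epithelia and 0.057 in brains. Among the 10 pairs of ple, ddc, b, e and yellow-e, a set named after its values were seen, the median was 0.67 in epithelia and 0.08 in brains. Within single epithelia it was 0.63 in head horns, 0.69 in thoracic horns and 0.92 in genitalia. The lowest of the 10 over all epithelia was 0.27, for yellow-e and e, and that pair had an r of 0.061 in head horns. In brains the highest r was 0.78, for b and ple. These values describe libraries that share reads, scaling and, for different tissues of 1 pupa, an animal that the labels do not identify, and carry no test.

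**Figure D2:**
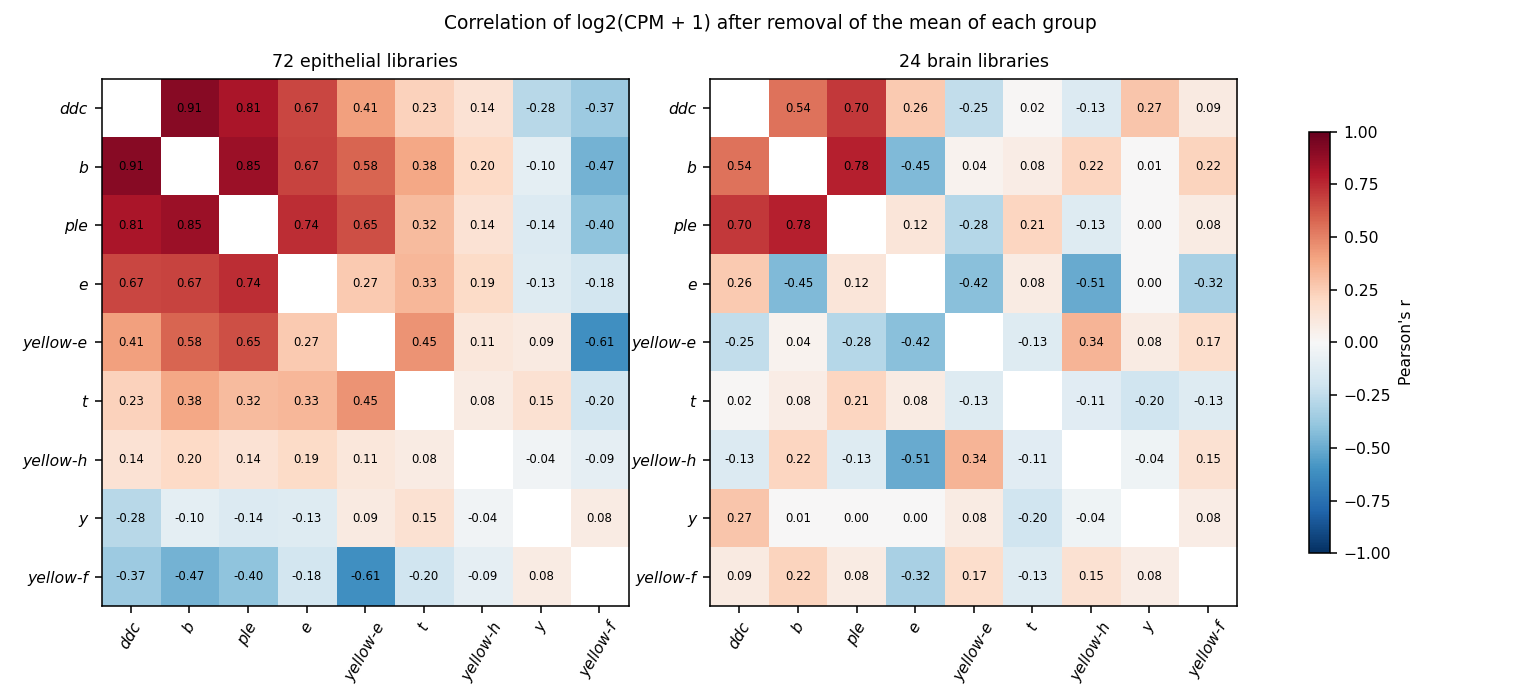
Pearson's r between the 9 genes for log2(CPM + 1) after removal of each group's mean, over the epithelial libraries and over the brain libraries in separate panels (colour scale from -1 to 1). ddc, b and ple form a block of high values in epithelia (0.81 to 0.91), yellow-f is negative against yellow-e (-0.61), and brains hold few pairs of similar size.

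Measures of library composition moved most with yellow-e and ple. In the 72 epithelial libraries, after removal of group means, yellow-e followed the share of reads on the 20 most abundant genes (r = 0.89) and the summed level of the epidermal markers (r = 0.84). For ple the values were 0.64 and 0.71, for b 0.50 and 0.58, and for yellow-f -0.35 and -0.30. They were lower for ddc (0.34 and 0.39) and e (0.28 and 0.39) than for b, and t had 0.39 and 0.47. For y they were 0.18 and 0.18, and for yellow-h 0.14 and 0.19. Summed markers of muscle, hemocytes, neurons and fat body, and total reads, had r between -0.36 and 0.36 with every member. The 8 horn libraries with the most yellow-e (344 to 2527 CPM) gave 45.9 to 52.7% of their reads to the 20 most abundant genes, whereas S77 and S87, the genitalia libraries with the most ple, ddc and b, gave 19.7 and 19.5%. The part of composition, cell make-up or developmental timing within the first day of the pupa in these differences was not tested, and fewer cells of a type cannot be told apart from less RNA per cell in such tissue pieces.

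Most calls on these genes were between tissues. In head horns over brain, the calls among the 8 members tested were 4 higher and 1 lower in dsxRNAi females (27.8% and 30.7% of all genes), 4 higher and 2 lower in dsxRNAi males (30.3% and 31.5%), 3 higher and 2 lower in control females (31.7% and 30.6%) and 3 higher and 1 lower in control males (36.7% and 37.9%), where the percentages are the shares of all genes called higher and lower. In thoracic horns over brain they were 4 higher and 0 lower in dsxRNAi females (29.7% and 31.3% of all genes), 4 higher and 1 lower in dsxRNAi males (32.6% and 31.1%), 4 higher and 0 lower in control females (33.4% and 31.1%) and 2 higher and 1 lower in control males (36.7% and 37.5%). In genitalia over brain they were 5 higher and 0 lower in dsxRNAi females (30.9% and 32.3% of all genes), 4 higher and 2 lower in dsxRNAi males (32% and 29.9%), 5 higher and 1 lower in control females (34.8% and 30.3%) and 5 higher and 3 lower in control males (37.2% and 37.3%). Most genes differed between these tissues, and the members' counts are to be read against those shares. The 3 epithelia of a sex and treatment share the same 6 brains, and these tests treat libraries of different tissues as independent although the tissues of a sex and treatment came from the same 6 pupae. The split of calls depended on the scale. Over all 12 comparisons with brain, members gave 47 higher and 14 lower calls (32.8% and 32.6% of all genes), against 37 higher and 23 lower calls (14.5% and 58.8% of all genes) with library totals as the scale, an alternative chosen after the data were seen.

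yellow-f, yellow-e, ple and yellow-h had higher calls in epithelium over brain. yellow-f was called higher in all 12 comparisons with brain, with log2 fold changes of 6.86 to 9.15 and adjusted p of at most 5.4e-10 (edgeR). Its 6 libraries did not overlap the brains in any of the 12. The share of all genes without overlap is not given here for any comparison. yellow-e was called higher in 10 of the 12 (log2 fold change 1.75 to 9.32 over the 12), the exceptions being thoracic horns of control males (log2 fold change 1.75, SE 0.91, adjusted p = 0.0862) and genitalia of dsxRNAi males (log2 fold change 4.58, SE 1.99, adjusted p = 0.0505). ple was called higher in 11 of 12 (1.89 to 5.61), with head horns of control females the exception (log2 fold change 2.19, SE 1.01, adjusted p = 0.0651). Its call in head horns of dsxRNAi females (2.26) was lost without any 1 of S1, S2, S3, S4, S5, S53 or S54, with log2 fold changes of 1.62 to 2.58 over all left-out libraries. yellow-h was called higher in 9 of 12, with log2 fold changes of 0.41 to 1.38, but with library totals as the scale 4 of these calls were lost and their signs turned (-0.19 in head horns of control females, -0.27 in head horns and -0.36 in thoracic horns of dsxRNAi males, and -0.17 in thoracic horns of dsxRNAi females).

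y and e were lower in some epithelia. y was called lower than brain in 9 of 12 comparisons, with log2 fold changes of -1.39 to -0.24 over the 12. Of those 9 calls, 6 were lost when 1 library was left out, namely S20, S22, S43, S45, S47, S91 or S93 in control males, S15, S16, S18, S38 to S41, S62 to S65, S85, S87 or S89 in control females, S7, S8 or S81 to S84 in dsxRNAi males, and any 1 of 17 of the 24 libraries in dsxRNAi females, while the log2 fold changes of these 6 stayed between -0.97 and -0.48. e was called lower than brain in genitalia of dsxRNAi males (log2 fold change -2.57, SE 0.62, adjusted p = 0.001) and control males (log2 fold change -3.64, SE 0.68, adjusted p = 4.37e-05), and in head horns of dsxRNAi males (-1.67, adjusted p = 0.0189 with edgeR) and control females (-2.86, adjusted p = 0.0158). In those 4 comparisons no epithelial library reached the lowest brain. In thoracic horns e was not called against brain in any group (0.64 to 1.80, adjusted p 0.0591 to 0.574).

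b was called higher in genitalia than in brain in every group, by 6.78 in dsxRNAi females, 4.12 in dsxRNAi males, 6.61 in control females and 1.75 in control males on the log2 scale (edgeR adjusted p 0.000554 to 0.0116). Without S77 the value in dsxRNAi females was 2.16, and the call held. The only other call for b against brain, in thoracic horns of control females (log2 fold change 3.74, SE 1.51, adjusted p = 0.0339), rested on S37: without it the log2 fold change was -0.49, and leaving out S13, S14, S16, S17 or S18 also ended the call. ddc was called once, lower in genitalia of control males than in brain (log2 fold change -2.55, SE 1.07, adjusted p = 0.0366, -3.40 to -2.30 over left-out libraries, lost without S19, S92, S93, S95 or S96), while its log2 fold changes ran from -3.46 to 3.26.

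**Figure D3:**
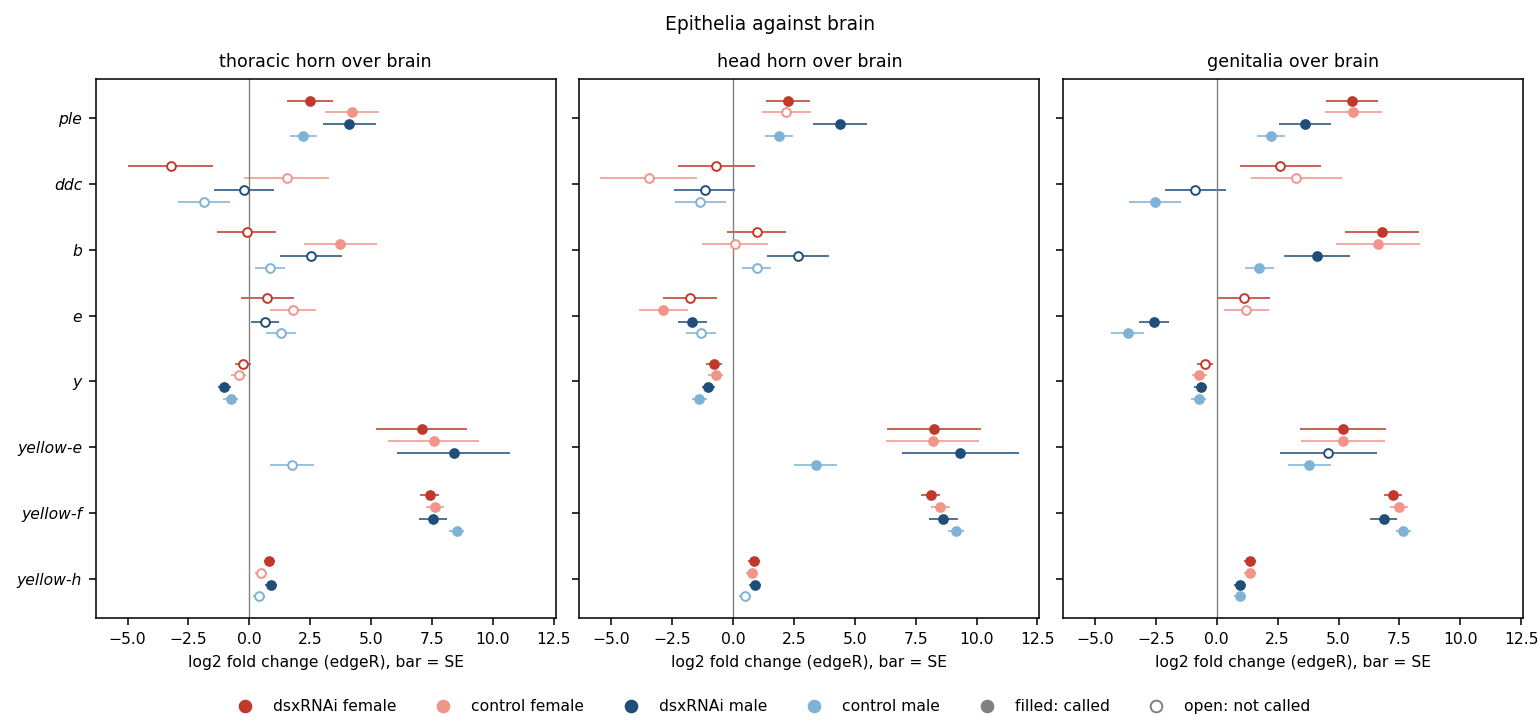
Log2 fold change of each gene in head horns, thoracic horns and genitalia over brain, for dsxRNAi females, dsxRNAi males, control females and control males; bars are standard errors and filled points are called (edgeR, adjusted p under 0.05). yellow-f lies between 6.86 and 9.15 in all 12 comparisons, y lies below 0 in all of them, and ddc spreads from -3.46 to 3.26.

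Between the horns, e was called lower in head horns in 3 of the 4 groups. In head horns over thoracic horns the calls were 0 higher and 0 lower in dsxRNAi females (1.21% and 0.775% of all genes), 0 higher and 1 lower in dsxRNAi males (2.33% and 4.58%), 0 higher and 1 lower in control females (2.54% and 2.08%) and 0 higher and 1 lower in control males (4.82% and 3.93%), and each of the 3 calls was e. Control females had e at 5.37 to 37.5 CPM (median 16) in head horns and 160.4 to 951 CPM (median 417) in thoracic horns, with no overlap (log2 fold change -4.66, SE 1.07, adjusted p = 0.0107). The difference was -2.61 in control males (adjusted p = 0.00966 with edgeR), -2.31 in dsxRNAi males (adjusted p = 0.0223) and -2.51 in dsxRNAi females (adjusted p = 0.349, not called). The call in dsxRNAi males was lost without S56, S57 or S60, with log2 fold changes of -2.58 to -2.02. Whether the difference between horns itself changed with treatment or sex was not tested.

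In head horns over genitalia the calls were 1 higher and 2 lower in dsxRNAi females (15.9% and 19.8% of all genes), 1 higher and 0 lower in dsxRNAi males (17% and 19.4%), 1 higher and 5 lower in control females (22.2% and 27.4%) and 2 higher and 0 lower in control males (23.9% and 24.5%). In thoracic horns over genitalia they were 0 higher and 3 lower in dsxRNAi females (19.1% and 21.8% of all genes), 1 higher and 0 lower in dsxRNAi males (11.3% and 13.1%), 0 higher and 1 lower in control females (18.3% and 24.4%) and 2 higher and 1 lower in control males (22.8% and 21.6%). yellow-f was higher in head horns than in genitalia in all 4 groups, by 0.89 in dsxRNAi females, 1.78 in dsxRNAi males, 1.04 in control females and 1.49 in control males (edgeR adjusted p 1.62e-05 to 0.019). The call in dsxRNAi females was lost without S49, where the adjusted p was 0.0596. In males the ranges did not overlap in either treatment. In thoracic horns over genitalia, e was called higher in dsxRNAi males (log2 fold change 3.21, SE 0.63, adjusted p = 0.000724) and control males (log2 fold change 4.95, SE 0.72, adjusted p = 7.57e-06).

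In females, 11 calls were lower in a horn than in genitalia, and 7 of them were lost when 1 genitalia library, S77 or S87, was left out and at no other library. In control females the head horn was called lower than genitalia for ddc (-6.72), ple (-3.42) and e (-4.06), and without S87 these became -3.46, -2.05 and -1.65 with edgeR adjusted p of 0.133, 0.0772 and 0.0613. In dsxRNAi females the head horn was called lower for b (-5.81) and ple (-3.29), and the thoracic horn for ddc (-5.84) and ple (-3.06). Without S77 those 4 values were -1.12, -1.43, -2.67 and -1.18, with edgeR adjusted p from 0.145 to 0.286. The other 4 calls did not follow this pattern. b stayed called in thoracic horns under genitalia of dsxRNAi females without S77 (-2.20, against -6.90 with it), and in control females b in head horns (-6.53, -7.13 to -4.39 over left-out libraries) and yellow-h in thoracic horns (-0.89) were called with each library left out. The call for yellow-h in head horns of control females (-0.60, edgeR adjusted p = 0.0442) held in 8 of 24 such fits. Between epithelia, members gave 8 higher and 15 lower calls in all (13.4% and 15.3% of all genes), against 4 higher and 31 lower (3.25% and 34.8% of all genes) with library totals.

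Females and males of the controls were compared within each tissue. Of the 31 tests on members, 3 were called: e was lower in female than in male head horns (where 6.53% of all genes were called, 3.3% as lower), and b and ple were higher in female than in male genitalia (where 10.3% of all genes were called, 6.53% as higher). In brains (0.16% of all genes) and thoracic horns (0.355%) none was called. Over the 4 tissues 12 of the 31 tests had an unadjusted p under 0.05 with edgeR, and DESeq2 called 9. The shares of all genes at that unadjusted p, or called by DESeq2, are not given here or in the comparisons below. Such counts are therefore a description and carry no result about the members as a set.

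In head horns e was at 25.7, 14.5, 37.5, 17.4, 5.37 and 11.3 CPM in control females and 119, 14.5, 55.3, 79.2, 77.1 and 104 CPM in control males. The groups overlapped at their edges, and the log2 fold change was -2.03 (SE 0.51, edgeR adjusted p = 0.0371). Over the 12 left-out libraries it stayed between -2.35 and -1.83 with adjusted p of 0.0116 to 0.0836, and the call was lost without S62, S64, S66, S67, S70, S71 or S72. Hemocyte markers summed to 445 to 825 CPM (median 493) in these female libraries and 760.1 to 923 CPM (median 858) in these male libraries. The muscle gene mhc was also lower in females (-2.22), while the other muscle markers are not given here for head horns. The part of hemocytes or muscle in the difference was not tested.

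In genitalia b was at 1589.8, 166, 8299, 101, 17.3 and 49.9 CPM in control females and 52.7, 31.5, 41.2, 54.8, 33.3 and 14 CPM in control males (log2 fold change 5.52, SE 1.43, adjusted p = 0.0407 with edgeR). ple, whose 6 values are given above, had a log2 fold change of 3.55 (SE 0.97, edgeR adjusted p = 0.0433). In both genes the lowest female value lay below the highest male value. The log2 fold change of b ran from 3.37 to 5.78 over left-out libraries, and the call held only without S89 or S90, while that of ple ran from 2.19 to 3.80 and its call held only without S89. The lower ends of both ranges came without S87. ddc (5.73, adjusted p = 0.0843) and e (4.32, adjusted p = 0.0536) had differences of the same sign that were not called with edgeR. Muscle markers summed to 3305 to 12113 CPM (median 8079.5) in female and 2647 to 3926 CPM (median 2887) in male genitalia, with 9 of the 11 called higher in females, and their part in these differences was not tested.

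For yellow-f the difference between control sexes in thoracic horns was not called with edgeR, although the groups did not overlap. The share of all genes without overlap in this comparison is not given here. In thoracic horns yellow-f was at 123, 349, 369, 388, 293 and 341 CPM in control females and 531, 587, 509.7, 632, 632 and 817 CPM in control males (log2 fold change -0.998, SE 0.23, adjusted p = 0.126 with edgeR). Without S37, the lowest female library, the adjusted p was 0.0219, and with DESeq2 it was 0.00332. In head horns the log2 fold change was -0.76 (edgeR adjusted p = 0.0541), with 305 to 747 CPM (median 592) in females and 710.1 to 1328 CPM (median 923) in males. yellow-e lay in the other direction in both horns, at 6.18 in thoracic and 5.16 in head horns (edgeR adjusted p = 0.24 and 0.0903). The t gene was untested with edgeR for its low counts. It had 0.532 to 1.42 CPM in thoracic horns of control females and 0 to 0.353 CPM in those of control males. DESeq2 called it there (log2 fold change 2.54, SE 0.76, adjusted p = 0.0473), although t had at most 18 reads in any library.

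To ask whether dsx acts on these genes, dsxRNAi animals were compared with controls of the same sex and tissue. None of the 61 tests on members in the 8 comparisons was called with edgeR, 13 had an unadjusted p under 0.05, and DESeq2 called 2. The last 2 counts have no share of all genes beside them. Of all genes, 0.393% were called in male head horns, 0.0101% in female genitalia and 0% in the other 6 comparisons. Leaving out each of the 96 libraries in turn also gave no call.

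The 2 DESeq2 calls were both yellow-e in male horns, and as both horns came from the same pupae they are not independent. In head horns of males yellow-e ranged over 1.35 to 2527 CPM (median 3.47) after dsxRNAi and over 1.02 to 23.8 CPM (median 1.5) in controls, and in thoracic horns over 0.614 to 1488 CPM (median 2.53) after dsxRNAi and over 0.331 to 5.99 CPM (median 0.849) in controls. The high values came from S58 (1243 CPM) and S59 (2527 CPM) in head horns and from S34 (495 CPM) and S35 (1488 CPM) in thoracic horns, and the other dsxRNAi libraries overlapped the controls. With edgeR the log2 fold change was 6.92 (SE 2.18, adjusted p = 0.202) in head horns and 7.64 (SE 2.12, adjusted p = 0.684) in thoracic horns. With DESeq2 the adjusted p was 0.00126 and 0.00026. These 4 libraries had 45.9 to 52.7% of their reads on the 20 most abundant genes, and the part of this share in the difference was not tested.

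Other differences at an unadjusted p under 0.05 with edgeR lay mostly in male genitalia and female thoracic horns. In male genitalia b was at 23.8 to 898 CPM (median 145) after dsxRNAi and 14 to 54.8 CPM (median 37.3) in controls, a log2 fold change of 2.98 (SE 0.86) with an edgeR adjusted p of 0.783, with ple at 1.26, yellow-e at 1.75, yellow-f at -0.61 and yellow-h at -0.53. In female thoracic horns b (-3.98), ddc (-4.64) and ple (-1.75) had negative values, and control library S37 alone held 1419 CPM of b and 649 CPM of ddc. yellow-h had -0.48 in female and -0.49 in male brains, and yellow-f -0.78 in male thoracic horns. The edgeR adjusted p of these values lay between 0.751 and 1.

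Between dsxRNAi females and dsxRNAi males, 0 of 31 tests were called with edgeR, 3 had an unadjusted p under 0.05, and DESeq2 called 0. Of all genes, 0.14% were called in brains, 0% in both horns and 2.06% in genitalia. The 3 members called between the sexes of controls had log2 fold changes of 0.17 (e in head horns, SE 0.65), 2.72 (b in genitalia, SE 1.67) and 2.30 (ple in genitalia, SE 1.02) in dsxRNAi animals, with edgeR adjusted p of 0.986, 0.306 and 0.183. yellow-f in thoracic horns, apart in control females and males, was at 148 to 452 CPM (median 355) in dsxRNAi females and 157 to 645 CPM (median 327) in dsxRNAi males, with overlap.

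The difference between the sexes in the knockdown effect was tested as an interaction. Of 33 tests 0 were called with edgeR, 7 had an unadjusted p under 0.05, and DESeq2 called 1, and of all genes 1.44% were called for head horns, 0.0105% for thoracic horns, 0.0191% for genitalia and 0% for brains. The DESeq2 call was yellow-e in head horns, with an edgeR interaction of 7.19 on the log2 scale (SE 2.85, adjusted p = 0.215). For e in head horns the interaction was -2.20 (SE 0.86, adjusted p = 0.206), which was not called. With edgeR, t was tested only here, in genitalia (0.27, SE 0.84, edgeR adjusted p = 1).

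Other genes of the pathway were counted from lists of Drosophila names. Of the 7 other Yellow genes present, 4 were tested in each comparison within a tissue. Of these, 0 were called in the knockdown comparisons, 2 between control sexes and 0 between dsxRNAi sexes. The 2 calls were in head horns, where 6.53% of all genes were called between control sexes, and in brains, where 0.16% were. yellow-c was lower in control female head horns than in control male head horns, at 1338 to 3707 CPM (median 2592) and 4033 to 9645 CPM (median 7040.5), without overlap (log2 fold change -1.50, SE 0.27, adjusted p = 0.00797 with edgeR), and this held with each library left out. In brains yellow-b was at 21.2 to 27.1 CPM (median 25.2) in control females and 16.8 to 21 CPM (median 17.6) in control males (log2 fold change 0.44, SE 0.073, adjusted p = 0.0281), a call that was lost without any 1 library other than S18 or S20. Across tissues the other Yellow genes gave 27 calls of 48 in dsxRNAi animals and 32 of 48 in controls, every one of them higher in the first-named tissue. Of all genes, 1.21 to 32.6% were called higher and 0.775 to 32.3% lower in the single comparisons of dsxRNAi animals, and 2.54 to 37.2% and 2.08 to 37.9% in those of controls, the lowest shares being those of head over thoracic horns. Of these calls, 1 (yellow-b in head horns over genitalia of control males) turned to the opposite sign with library totals as the scale. Laccase2, the one phenol oxidase name found, was called in 0 of 8 knockdown comparisons and 0 of 8 sex comparisons.

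Of 6 genes for precursors and cofactors, 4 were tested within tissues, with 0 calls in 32 knockdown tests and 3 calls among 16 tests between control sexes, where 6.53% of all genes were called in head horns and 10.3% in genitalia (0 to 0.393% in the knockdown comparisons). The phenylalanine hydroxylase hn, which supplies tyrosine, was at 25.2 to 256 CPM (median 68.9) in control female head horns and 6.28 to 20.5 CPM (median 8.14) in control male head horns, without overlap (log2 fold change 3.01, SE 0.58, adjusted p = 0.0109 with edgeR), and was called with each library left out. In genitalia hn (1.67, adjusted p = 0.0433) and pu, the GTP cyclohydrolase of pterin cofactor synthesis (0.57, adjusted p = 0.0369), were called higher in control females with edgeR. Of the 17 ommochrome and eye pigment genes, ry (1.01) and dor (1.24) were called higher in control female genitalia, 2 calls in 56 tests between control sexes, where 6.53% of all genes were called higher in genitalia. These 4 calls in genitalia held only without S89 or, for some, S94.

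The list of tanning hormone genes, 5 of 7 names found, gave the one knockdown call of any pathway list. burs, a subunit of the tanning hormone bursicon, was at 9.24 to 32.7 CPM (median 13.5) in head horns of dsxRNAi males and 3.38 to 5.14 CPM (median 4.09) in those of control males, without overlap (log2 fold change 2.08, SE 0.30, adjusted p = 0.026 with edgeR, where 0.393% of all genes were called). It kept the call in 8 of 12 fits with a library left out and lost it without S67, S70, S71 or S72. burs was also higher in control female head horns than in control male head horns, at 6.56 to 40.4 CPM (median 11.3) against the values above (log2 fold change 2.18, SE 0.48, adjusted p = 0.0208), a call lost without S71 or S72. The lists of N-acetyltransferases (2 genes) and of dopamine transport and receptor genes (7 genes) had 0 calls in the knockdown and sex comparisons. These lists overlap, as the 2 genes of the first (OTAU002173 and OTAU007795), both named dat, also stand in the second. Which of these roles either gene has was not determined.

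For each member, the genes whose levels over the 16 group means were most like its own were listed, among 10531 genes with a mean of at least 1 CPM. The highest r was 0.996, between yellow-f and pvf1, followed by OtauTmpM009051 (0.995). For ddc the closest was OtauTmpA003174 (0.985), a gene 10008 bases away on scaffold 22, and then rab2 (0.962). ple was closest to OtauTmpM006183 (0.977) and egln3 (0.969), and b to OtauTmpS001047 (0.977) and st1 (0.971). yellow-e was closest to OtauTmpM014988 (0.963) and OtauTmpM014962 (0.962), yellow-h to cg4729 (0.941) and syx17 (0.937), y to emc3 and cg14040 (0.922 each), t to OtauTmpM002274 (0.915) and OtauTmpM013158 (0.909), and e to cg9098 (0.884) and pkg21d (0.882). Each r was picked as 1 of the highest among all genes compared. A split between brain and epithelia, as in yellow-f, raises r with every gene that shares it. Group means share scaling and, between tissues, animals, and these values are a description.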

How the data were processed

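RNA of 96 stranded, single-end mRNA libraries was analysed from gene-level counts. According to the labels and the study's methods, the authors trimmed reads with Trimmomatic 0.32, mapped them with TopHat2 2.1.0 to the O. taurus draft genome, counted them per gene with HTSeq 0.6.1p1 and deposited these raw counts; the deposited FPKM values were made by the authors with DESeq2. Whether counting used strand is not given in the sources used here.

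The 9 genes were taken by name, and they and the other lists were chosen with earlier results of these data known. Counts were fitted with edgeR 4.0.16 (R 4.3.3) using TMM factors, filterByExpr by group and the robust quasi-likelihood test on the 12 libraries of a comparison, the 24 of a tissue for interactions, or the 24 of a sex and treatment for tissues. P-values were Benjamini-Hochberg adjusted over all genes tested, with a threshold of 0.05. Levels are TMM-scaled CPM over all 96 libraries, and correlations use log2(CPM + 1). Every member that passed the filter was tested in every comparison. Counts of calls are given for all comparisons, and single values for a part of them. Also reported are dsx, the 2 genes most like each member, and other list genes called in a knockdown or sex comparison. Scripts were tested on simulated counts. DESeq2 1.42.0 and other settings were tried as alternatives. Gene names come from the deposited table, and no sequences were used here.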

Additional observations from a re-analysis of the deposited data

Results flagged for a closer look

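In 44 of the 144 sets of 6 libraries (9 genes in 16 groups), 1 library stood apart from the other 5 by a gap, as a share of the set's range, beyond Dixon's critical value for 6 samples. Chance passes it in about 1 of 20 sets of normally distributed values, a rate that cannot be applied to CPM that scatter over several log2 units. On the log2(CPM + 1) scale, chosen after the data were seen, 17 of the sets passed the same value, 15 of them among the 44. The sets share libraries and the genes vary together, so these are not 44 separate events.

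Tyrosine hydroxylase ple stood apart in 8 sets: 184 CPM in dsxRNAi female brain S6, 201 CPM in control female brain S15, 106 CPM in control male brain S19, 4768 CPM in dsxRNAi male thoracic horn S35, 5746 CPM in control female thoracic horn S37, 6960.1 CPM in dsxRNAi male head horn S59, 20175 CPM in dsxRNAi female genitalia S77 and 17902 CPM in control female genitalia S87. The decarboxylase ddc did so in 9 sets, with 158 CPM in dsxRNAi male thoracic horn S35, 649 CPM in control female thoracic horn S37, 51.4 CPM in control male thoracic horn S43, 156 CPM in dsxRNAi female head horn S54, 77.2 CPM in dsxRNAi male head horn S59, 17.6 CPM in control female head horn S63, 68.2 CPM in control male head horn S67, 1398 CPM in dsxRNAi female genitalia S77 and 1928 CPM in control female genitalia S87. For b there were 10 sets, with 36.9 CPM in dsxRNAi female brain S6, 47.4 CPM in control female brain S15, 54.9 CPM in dsxRNAi female thoracic horn S29, 442 CPM in dsxRNAi male thoracic horn S35, 1419 CPM in control female thoracic horn S37, 142 CPM in dsxRNAi female head horn S54, 517 CPM in dsxRNAi male head horn S59, 53.8 CPM in control female head horn S63, 10981 CPM in dsxRNAi female genitalia S77 and 8299 CPM in control female genitalia S87. The synthetase e had 3 sets, 182 CPM in dsxRNAi female head horn S54, 1962 CPM in dsxRNAi female genitalia S77 and 1467 CPM in control female genitalia S87.

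Of the Yellow genes, yellow-e stood apart in 9 sets, with 1.07 CPM in dsxRNAi female brain S1, 344 CPM in dsxRNAi female thoracic horn S29, 1488 CPM in dsxRNAi male thoracic horn S35, 667 CPM in control female thoracic horn S37, 5.99 CPM in control male thoracic horn S45, 798 CPM in dsxRNAi female head horn S53, 972 CPM in control female head horn S61, 23.8 CPM in control male head horn S69 and 16.5 CPM in control male genitalia S93. In t the libraries were 1.99 CPM in dsxRNAi male thoracic horn S35 and 1.02 CPM in dsxRNAi male head horn S56. The other 3 genes had 1 set each, and in each the library was the lowest of its group: y at 2.39 CPM in control female thoracic horn S42, yellow-f at 123 CPM in control female thoracic horn S37 and yellow-h at 3.18 CPM in control female head horn S64.

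Libraries S35, S37, S77, S87, S54 and S59 each held 3 or more of these values. S37, S35 and S59 had 50, 46.2 and 52.7% of their reads on the 20 most abundant genes, S54 had 23.9%, and S77 and S87 had 19.7 and 19.5%. Their part in the values was not tested.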

How the results depend on the processing

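Between tissues, in controls 44 of 96 tests were called, 43 to 55 under the other settings and 40 to 47 with each library left out; in dsxRNAi animals 40 of 96 were called, 40 to 53 under the other settings and 36 to 43 with each library left out. Of the 84 calls, 64 held with every library left out, 57 under all 5 other settings and 47 under both. The settings were DESeq2's size factors in edgeR, DESeq2 itself, no filter on low counts, more groups in 1 fit, and library totals with no scaling factor, the last chosen after the data were seen. Without a scaling factor, 14 of the 84 calls were lost, 25 tests were newly called and 26 of 192 log2 fold changes changed sign, 4 of them among the calls: yellow-h turned to -0.19 in head horns of control females over brain, -0.27 in head horns and -0.36 in thoracic horns of dsxRNAi males, and -0.17 in thoracic horns of dsxRNAi females. With each library left out, b in thoracic horns over brain of control females ran from -0.49 (without S37) to 4.25, and e in thoracic horns over genitalia of dsxRNAi females, not called, from -0.77 to 2.66 (without S77).

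Knockdown calls numbered 0, with 2 under DESeq2 and 0 under each other setting and in all 96 fits with a library left out (lowest 0, highest 0). The 3 calls between control sexes became 9 under DESeq2, 1 with all 4 groups of a tissue in 1 fit and 0 with no filter on low counts, and ran from 1 to 6 with each library left out. Library totals also gave 3, of which e and b remained and yellow-f in genitalia replaced ple. The interaction had 0 calls and 1 under DESeq2, and the sexes of dsxRNAi animals 0 throughout. The cause of these changes was not tested, except that the fit with no filter adjusts over more genes. The median correlation between members in epithelia was 0.147, 0.149 with a pseudocount of 0.1 CPM and 0.039 from FPKM.

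No paired analysis was run, because library numbers run from 1 to 96 without repeating and the animal behind each library is not named in the labels. Depth limits t, with at most 18 reads in a library, and the lowest values of ddc and yellow-e, which rest on 3 reads or fewer in some libraries. Counts were also modest for y and yellow-h, whose lowest libraries held 11 and 17 reads. The part of counting error in the spread between libraries was not tested.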

Other observations

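The libraries of each group carry consecutive numbers, and the places of the high libraries in that order recurred between tissues. In all 4 combinations of treatment and sex, the library with the most yellow-e had the same place in the head horn group as in the thoracic horn group: the fifth in dsxRNAi females (S53 with 798 CPM and S29 with 344 CPM), the fifth in dsxRNAi males (S59 with 2527 CPM and S35 with 1488 CPM), the first in control females (S61 with 972 CPM and S37 with 667 CPM) and the third in control males (S69 with 23.8 CPM and S45 with 5.99 CPM). In 3 of the 4 the same place also held the most yellow-e in genitalia. With libraries matched by place and group means removed, Pearson's r over 24 places was 0.98 between head and thoracic horns, 0.92 between head horns and genitalia and 0.88 between thoracic horns and genitalia.

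Other members had lower values by the same measure. Between head and thoracic horns r was 0.81 for ple, 0.80 for yellow-f, 0.73 for ddc, 0.68 for b and -0.11 for e. Between genitalia and brain it was 0.70 for b, 0.71 for y and -0.48 for e. The labels give 6 pupae per sex and treatment, each sampled for 4 tissues, but do not say whether a place in the order marks 1 pupa. No comparison used the order, and these values, noticed in the data, carry no test.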
